A study of Homo sapiens with 6 samples.

Results

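Fibroblast marker genes other than the collagens were followed across the arrays of this study: CXCL12, DCN, LUM, FBLN2, POSTN, THY1, FAP, PDGFRA, PDGFRB and PRRX1. The members were chosen by name, as every probe set whose gene name or Entrez gene is on that list, which gave 25 of the 45033 probe sets on the array and 10 of its 23596 gene symbols. A probe set is a group of 3 short DNA probes for one transcript, read as a single value. The 10 genes had come to attention because a list of fibroblast genes was lower in Wnt3a medium than in control medium in earlier results of the same arrays. Differences between the media, and differences of the SET8 shRNA arrays from the control medium arrays, are therefore given as a description without a test.

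Fibroblasts build and anchor connective tissue. They secrete small proteoglycans, glycoproteins and chemokines, and carry surface receptors for platelet-derived growth factor through which they are told to divide and migrate. The study used HEK293, an established human line of embryonic kidney origin with epithelial-like growth, so these genes mark another cell type than the one cultured.

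RNA came from 3 groups of 2 arrays, each of 1 sample: HEK293 cells with SET8 shRNA in Wnt3a medium, cells with control shRNA in Wnt3a medium, and cells with control shRNA in control medium. All cells had been transfected with an shRNA for about 40 hours and then kept in conditioned medium for 7 hours. SET8, now named KMT5A, is a histone methyltransferase that places a single methyl group on histone H4, and Wnt3a is a ligand that stabilises beta-catenin. The labels do not name the cells that conditioned the medium, the design text speaks of siRNA where the labels have shRNA, and nothing says that replicates were separate cultures, so the spread between them may be technical. No group with SET8 shRNA in control medium was analysed here.

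Keratin 8, an intermediate filament of simple epithelia, read 14.39 to 14.66 on the log2 scale over the 6 arrays (KRT8), and keratin 18 read 13.00 to 13.68 (KRT18). Replicate arrays correlated over all probe sets at 0.97 to 0.99. KMT5A read 8.97 and 9.65 with SET8 shRNA, 11.20 and 10.53 with control shRNA in Wnt3a medium, and 11.03 and 10.75 in control medium, on its brighter probe set AY064546. Within Wnt3a medium it was 2.94-fold lower with SET8 shRNA, with a limma adjusted p of 0.236, and the other KMT5A probe set was 2.16-fold lower with an adjusted p of 0.326. The targeted gene thus had a lower mean on both probe sets without passing the test. The random control, the level of 1994 probes with no human target, lay between 4.66 and 4.84 on the arrays and is taken as background. A member at or below it has only a bound.

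As a group, the fibroblast markers stood higher in control medium than on any array with Wnt3a medium. Over the 25 probe sets the median log2 intensity was 5.10 with SET8 shRNA in Wnt3a medium, 5.38 with control shRNA in Wnt3a medium and 6.58 in control medium. At or below the random control were 13 of 50 values with SET8 shRNA, 10 of 50 with control shRNA in Wnt3a medium and 1 of 50 in control medium. All member values in Wnt3a medium lay under the median of their array, as did all but 6 in control medium.

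The summed intensity of the 10 genes, each by its brightest probe set, was 458 and 527 on the SET8 shRNA arrays, 471 and 556 on the control shRNA arrays in Wnt3a medium, and 1162 and 1461 on the control medium arrays. No Wnt3a medium array, with either shRNA, came within a factor of 2 of either control medium array. The sum is of linear intensities, values at background included, so the brightest genes weigh most in it. In control medium FBLN2, CXCL12, THY1 and DCN averaged 8.29, 7.92, 7.50 and 7.49 on the log2 scale, and FAP and PDGFRA 5.41 and 5.29. Since RNA was taken from whole cultures, fewer cells with these transcripts and less transcript per cell cannot be told apart.

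**Figure D1:**
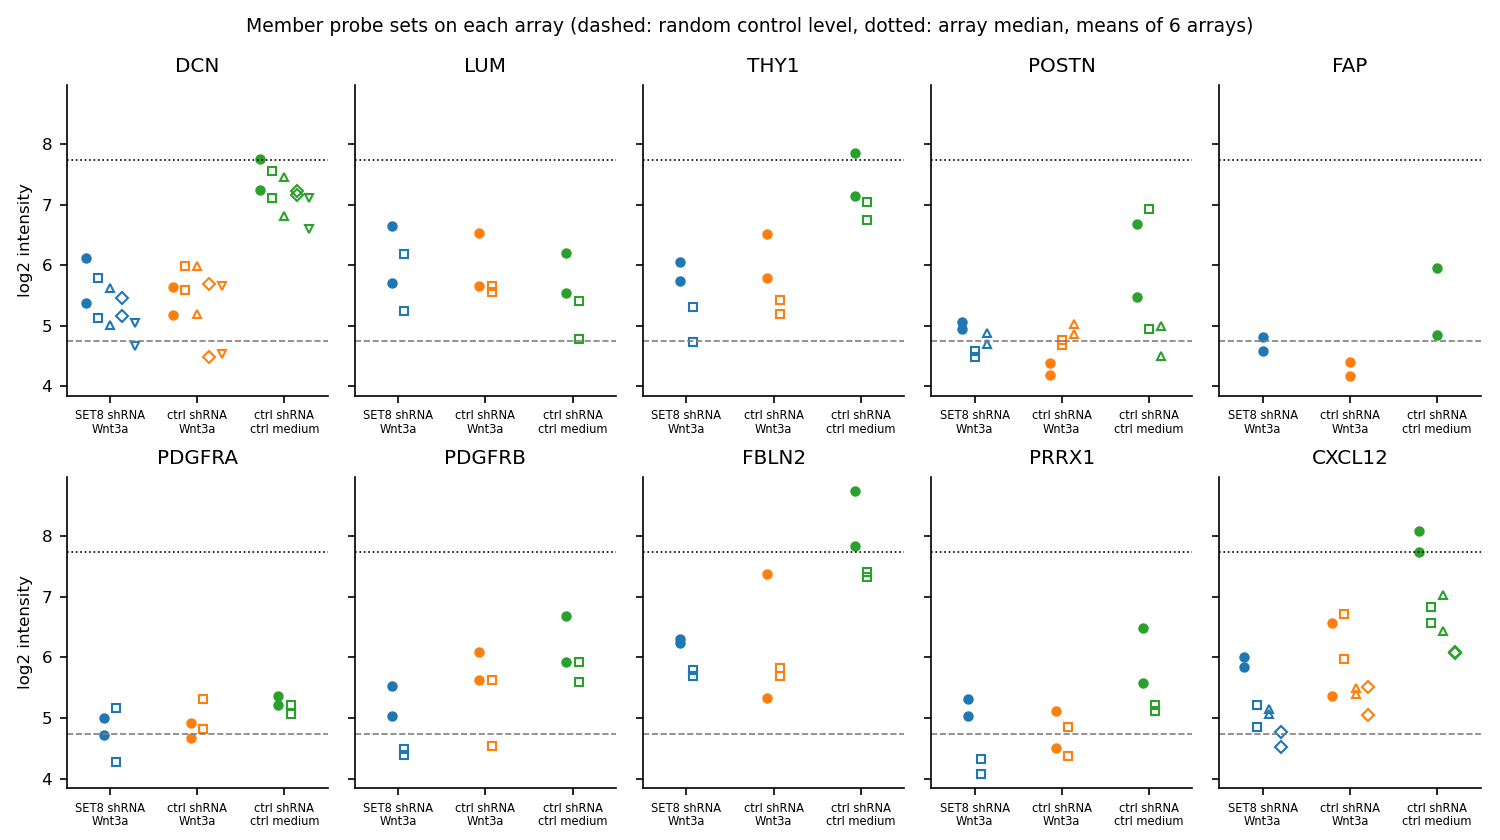
Log2 intensity (vertical axis) of the 25 member probe sets on each of the 6 arrays, 1 panel per gene, with groups along the horizontal axis and 1 marker shape per probe set (filled for the brightest), 2 points per group. DCN, THY1, FBLN2 and, apart from the overlapping probe set DQ345517, CXCL12 sit higher in control medium, while LUM does not.

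Between the media, with control shRNA in both, 22 of the 25 probe sets had a lower mean in Wnt3a medium, where 47.5% of all probe sets did. The median difference, Wnt3a minus control medium, was -1.23 on the log2 scale over the 25 and 0.02 over all probe sets. Arrays numbered 1 gave a median of -1.28 with 22 of 25 lower, and arrays numbered 2 gave -1.34 with 21 of 25 lower. In 11 of the 25, of 5 genes, both Wnt3a medium arrays were at least 1.5-fold below both control medium arrays, against 0.908% of all probe sets and 1.79% of those too dim to test. That count was 18 without Wnt3a medium replicate 2, and 6 when 50 was added to each intensity before taking logs. Because this contrast drew attention to the genes, the excess over all probe sets is not read as a result about them.

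The SET8 shRNA arrays, which also had Wnt3a medium, are set against the same control medium arrays, so the values are not independent of those above. Again 22 of 25 had a lower mean, with a median of -1.43, against 48.7% of all probe sets with a lower mean. In 15 of the 25, of 6 genes, both SET8 shRNA arrays lay at least 1.5-fold below both control medium arrays, against 1.95% of all probe sets and 2.28% of those too dim to test. These counts take the values as read. PRRX1 enters only by NM_006902, whose SET8 shRNA values were both under the random control. Set to that level, its mean was 1.38-fold lower. In limma 0.0504% of the 23808 probe sets tested were called here, and neither of the 2 members tested was among them, from which nothing is read. For 18 of the 25 both control medium arrays were above all 4 Wnt3a medium arrays, where 5.64% of all probe sets and 7.46% of the dim ones were. That count takes the values as read and any margin. It holds all 5 DCN probe sets, and FAP by 4.85 in control medium against 4.82 with SET8 shRNA. Because the control medium arrays drew attention to the genes, the excesses given here are not read as results about them.

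**Figure D2:**
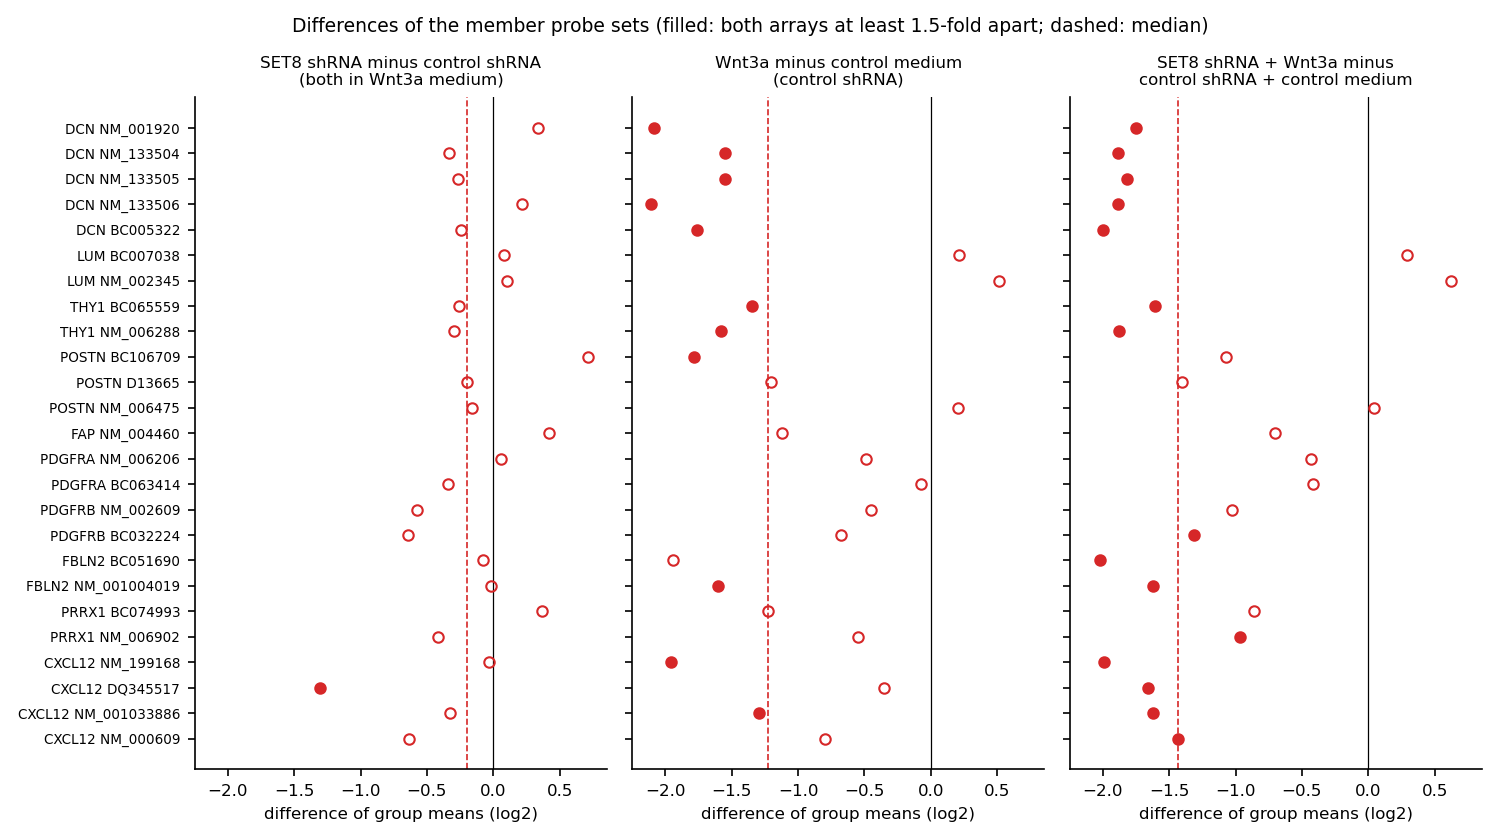
Difference of group means on the log2 scale (horizontal axis) for each member probe set (rows) in the 3 contrasts named above the panels, filled where both arrays of a group were at least 1.5-fold from both arrays of the other, by the values as read. The dashed medians, also of the values as read, lie at -0.19, -1.23 and -1.43 from left to right.

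CXCL12 is a chemokine that stromal cells secrete to hold and attract cells carrying its receptor CXCR4. Its probe set NM_199168 (chr10:44192515-44200548, hg18) read 5.84 and 6.01 with SET8 shRNA in Wnt3a medium, 6.57 and 5.36 with control shRNA in Wnt3a medium, and 8.09 and 7.74 in control medium. Both control medium arrays were above all the others. Relative to control medium the mean was 3.97-fold lower with SET8 shRNA and 3.87-fold lower with control shRNA in Wnt3a medium (log2 differences -1.99 and -1.95, SE 0.40 each). For control shRNA the difference was -2.56 when Wnt3a medium replicate 1 was left out and -1.35 when replicate 2 of that group was.

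CXCL12 had 3 further probe sets, which share the gene and in part the transcript. NM_001033886 read 5.15 and 5.07 with SET8 shRNA, 5.49 and 5.39 with control shRNA in Wnt3a medium, and 7.03 and 6.44 in control medium. NM_000609 read 4.77 and 4.52 with SET8 shRNA, 5.05 and 5.51 with control shRNA in Wnt3a medium, and 6.07 and 6.09 in control medium. On these both control medium arrays again stood above the other 4. DQ345517 differed in order, with 5.21 and 4.86 for SET8 shRNA, 5.97 and 6.71 for control shRNA in Wnt3a medium, and 6.56 and 6.83 in control medium: here the arrays of the 2 media with control shRNA overlapped and the SET8 shRNA arrays were lowest.

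CXCL12 and FBLN2, the matrix glycoprotein fibulin 2, were the 2 members bright enough to be tested, and their RefSeq promoters are shown because the study concerns a pathway that acts through TCF and LEF factors on DNA. Each line gives the 250 bases before the annotated start on the gene's own strand in GRCh38.p14, CXCL12 at chr10:44385098-44385347 (minus strand) and the upstream FBLN2 start at chr3:13548875-13549124 (plus strand). Capitals mark a match to CTTTGA, the core letters of the TCF/LEF motif, searched on both strands.
CXCL12: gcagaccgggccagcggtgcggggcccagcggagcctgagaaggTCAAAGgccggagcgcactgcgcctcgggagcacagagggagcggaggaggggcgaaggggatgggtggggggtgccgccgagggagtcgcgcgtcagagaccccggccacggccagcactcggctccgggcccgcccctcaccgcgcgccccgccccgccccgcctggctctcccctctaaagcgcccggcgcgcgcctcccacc
FBLN2: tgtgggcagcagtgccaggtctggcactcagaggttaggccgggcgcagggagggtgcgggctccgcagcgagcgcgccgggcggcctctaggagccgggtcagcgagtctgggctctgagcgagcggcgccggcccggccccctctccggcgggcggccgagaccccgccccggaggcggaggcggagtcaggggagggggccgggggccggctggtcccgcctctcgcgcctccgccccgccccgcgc
The CXCL12 window holds 1 match, read on the opposite strand, and the FBLN2 window none. Of 8 windows listed for 6 member genes (CXCL12, FBLN2, POSTN, PDGFRA, PDGFRB and PRRX1), 1 held the TCF/LEF letters, 1 held TATAAA and 3 held CCAAT, where 11.2%, 10.7% and 32.0% of all 35116 windows of that length did. In the 8 windows no match to one motif overlapped a match to another. A match is a description of the letters and says nothing of binding.

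Decorin (DCN) and lumican (LUM) are small leucine-rich proteoglycans that bind collagen fibrils and set their spacing, and their genes lie 33492 bases apart on chromosome 12. For DCN all 5 probe sets were higher in control medium than on any Wnt3a medium array. The brightest, NM_001920 (chr12:90063165-90100937, hg18), read 6.11 and 5.38 with SET8 shRNA, 5.17 and 5.64 with control shRNA in Wnt3a medium, and 7.24 and 7.75 in control medium. The means relative to control medium were 3.36-fold lower with SET8 shRNA and 4.25-fold lower with control shRNA in Wnt3a medium. Over the 5 probe sets, which cover nearly the same span, with values at background set to the random control, the mean was 3.36-fold to 3.88-fold below control medium with SET8 shRNA and 2.92-fold to 4.25-fold below it with control shRNA in Wnt3a medium. NM_133506 and BC005322 each had at least 1 Wnt3a medium array at background. All 5 were at least 1.5-fold apart in both contrasts.

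LUM behaved otherwise than its neighbour. Probe set BC007038 (chr12:90021458-90029425, hg18) read 5.70 and 6.64 with SET8 shRNA, 6.53 and 5.65 with control shRNA in Wnt3a medium, and 6.20 and 5.55 in control medium. NM_002345 read 5.24 and 6.19 with SET8 shRNA, 5.65 and 5.56 with control shRNA in Wnt3a medium, and 4.77 and 5.41 in control medium. The groups overlapped except that both control medium values of NM_002345 lay below both Wnt3a medium values with control shRNA, a log2 difference of 0.52. LUM was the only one of the 10 genes with no probe set lower in Wnt3a medium. The difference between DCN and LUM was not tested.

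FBLN2 links elastic fibres and basement membranes. Its probe set BC051690 (chr3:13565661-13654908, hg18) read 6.24 and 6.31 with SET8 shRNA, 5.32 and 7.38 with control shRNA in Wnt3a medium, and 7.84 and 8.75 in control medium. The 2 Wnt3a medium arrays with control shRNA were far apart, and the higher one came near the lower control medium array. The log2 difference from control medium was -2.02 with SET8 shRNA and -1.94 with control shRNA (SE 0.63 each). For control shRNA it was -0.91 when Wnt3a medium replicate 1 was left out and -2.97 when replicate 2 of that group was. NM_001004019, of nearly the same span, was tighter, with 5.70 and 5.79 for SET8 shRNA, 5.83 and 5.69 for control shRNA in Wnt3a medium, and 7.33 and 7.40 in control medium. That is 3.07-fold and 3.04-fold below control medium, with no overlap.

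Periostin (POSTN), a matrix protein of healing and remodelling tissue that binds integrins, gave different pictures on its 3 probe sets. BC106709 (chr13:37035365-37070874, hg18) read 4.94 and 5.07 with SET8 shRNA, 4.19 and 4.39 with control shRNA in Wnt3a medium, and 5.47 and 6.68 in control medium. Both Wnt3a medium arrays with control shRNA were under the random control, so the mean was at least 2.55-fold lower there than in control medium. D13665 read 4.49 and 4.58 with SET8 shRNA, 4.69 and 4.77 with control shRNA in Wnt3a medium, and 4.95 and 6.92 in control medium, where only the second array stood well above background. NM_006475 was between 4.49 and 5.02 on all 6 arrays and its groups overlapped. For BC106709 the bound was at least 3.87-fold when control medium replicate 1 was left out and at least 1.68-fold when replicate 2 of that group was.

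THY1, a glycoprotein tethered to the surface of fibroblasts, neurons and thymocytes, was higher in control medium on both its probe sets. BC065559 (chr11:118794739-118799064, hg18) read 5.73 and 6.05 with SET8 shRNA, 5.79 and 6.51 with control shRNA in Wnt3a medium, and 7.14 and 7.85 in control medium. NM_006288 read 4.72 and 5.30 with SET8 shRNA, 5.20 and 5.42 with control shRNA in Wnt3a medium, and 6.74 and 7.04 in control medium. On both, every control medium value was above every Wnt3a medium value. THY1 means were 3.04-fold and at least 3.65-fold below control medium with SET8 shRNA, where 1 array of NM_006288 was at background, and 2.54-fold and 2.99-fold below it with control shRNA in Wnt3a medium.

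FAP, a surface serine protease of activated fibroblasts, has 1 probe set, NM_004460 (chr2:162735445-162808291, hg18), and was near background. It read 4.82 and 4.59 with SET8 shRNA, 4.17 and 4.40 with control shRNA in Wnt3a medium, and 5.96 and 4.85 in control medium. With control shRNA both Wnt3a medium arrays were under the random control, a mean at least 1.61-fold lower than in control medium, and the second control medium array was itself close to the higher SET8 shRNA array. For control shRNA the bound was at least 2.36-fold when control medium replicate 2 was left out and at least 1.09-fold when replicate 1 was.

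PDGFRA and PDGFRB are the receptor tyrosine kinases for platelet-derived growth factors, the mitogens of fibroblasts and pericytes. PDGFRA showed the least of the pair: NM_006206 (chr4:54790203-54859169, hg18) read 4.72 and 5.00 with SET8 shRNA, 4.68 and 4.93 with control shRNA in Wnt3a medium, and 5.22 and 5.37 in control medium. Its groups did not overlap between the media, yet no array was far above background. The other PDGFRA probe set, BC063414, read 5.16 and 4.28 with SET8 shRNA, 4.81 and 5.31 with control shRNA in Wnt3a medium, and 5.06 and 5.22 in control medium, with the groups overlapping.

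PDGFRB was brighter on NM_002609 (chr5:149473594-149515615, hg18), which read 5.04 and 5.52 with SET8 shRNA, 6.09 and 5.63 with control shRNA in Wnt3a medium, and 6.69 and 5.93 in control medium. The SET8 shRNA arrays were lowest and the arrays of the 2 media with control shRNA overlapped. BC032224 read 4.39 and 4.49 with SET8 shRNA, both under the random control, 4.55 and 5.62 with control shRNA in Wnt3a medium, and 5.59 and 5.92 in control medium. On it the SET8 shRNA mean was at least 2.08-fold below control medium.

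PRRX1, a homeobox transcription factor of limb and craniofacial mesenchyme, had 2 probe sets with lower means in both Wnt3a medium groups. BC074993 (chr1:168899936-168971994, hg18) read 5.03 and 5.32 with SET8 shRNA, 4.50 and 5.12 with control shRNA in Wnt3a medium, and 5.58 and 6.49 in control medium. NM_006902 read 4.33 and 4.08 with SET8 shRNA, 4.37 and 4.86 with control shRNA in Wnt3a medium, and 5.21 and 5.12 in control medium. Both control medium arrays were above the other 4 on each, but the SET8 shRNA values of NM_006902 were under the random control, so that mean was at least 1.38-fold lower. On BC074993 the difference of SET8 shRNA from control medium was -0.41 when control medium replicate 2 was left out and -1.31 when replicate 1 was.

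Setting the shRNAs against each other within Wnt3a medium asks how genes differ with SET8 shRNA in cells given Wnt3a. The 2 control shRNA arrays used here are also part of the contrast that drew attention to these genes. Of the 2 members that could be tested, neither was called. CXCL12 (NM_199168) averaged 5.93 ± 0.12 with SET8 shRNA and 5.96 ± 0.85 with control shRNA (SD, n = 2 each), a difference of -0.03 with a 95% interval of -0.96 to 0.89 and a limma adjusted p of 0.998. FBLN2 (BC051690) averaged 6.27 ± 0.04 with SET8 shRNA and 6.35 ± 1.46 with control shRNA (SD, n = 2 each), a difference of -0.08 with a 95% interval of -1.55 to 1.39 and a limma adjusted p of 0.998. The intervals take in changes of either sign, so they do not show that the levels are alike.

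Only these 2 of the 25 member probe sets passed the filter on dim signals, a value above the median of the array on at least 2 of the 6 arrays. Both passed through the control medium arrays alone, as the medians there were 7.73 and 7.63. Just outside stood DCN NM_001920 and THY1 BC065559, each above the median on 1 control medium array. Of all 23808 probe sets tested, 0% passed an adjusted p of 0.05 in limma for this contrast and 7.16% had an unadjusted p under 0.05, where 0 of the 2 members did.

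With no filter, limma tested all 25 members against 45033 probe sets. The smallest adjusted p was 0.666, and 1 member, CXCL12 DQ345517, had an unadjusted p under 0.05, which 5.05% of all probe sets had. It was also the 1 member at least 1.5-fold lower on both SET8 shRNA arrays than on both control shRNA arrays, 2.48-fold by the means, against 1.45% of all probe sets and 1.43% of those too dim to test. Lower means stood at 17 of 25, where 49.5% of all probe sets were lower, and the median was -0.19 over the 25 but 0.07 over the brightest probe set of each gene. The sign thus depends on which probe sets are taken. Both medians take the values as read. The -0.19 is the value of POSTN D13665, on which both SET8 shRNA arrays were at background. With values at background set to the random control, that probe set differed by -0.03. All 4 CXCL12 probe sets had lower means with SET8 shRNA, from -1.31 to -0.03, as did both of PDGFRB, at -0.58 on NM_002609. On PDGFRB BC032224 both SET8 shRNA arrays and replicate 1 of control shRNA in Wnt3a medium were at background. With such values set to the random control, its difference was -0.44, and 0.03 when replicate 2 of control shRNA in Wnt3a medium was left out.

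Genes that act with the members were measured as well. CXCR4, the receptor of CXCL12, was bright and read 13.32 and 14.07 with SET8 shRNA, 13.48 and 13.49 with control shRNA in Wnt3a medium, and 13.56 and 13.37 in control medium. Its log2 difference between the shRNAs was 0.21 (SE 0.30). With control shRNA its values in Wnt3a medium lay between the 2 control medium values. ACKR3, a scavenging receptor of CXCL12, and DPP4, a protease that trims it, were too dim to test, with differences between the media of -0.24 and -0.09. Of the 4 PDGF ligands, 3 had lower means in Wnt3a than in control medium, and the median was -0.20. The other, PDGFD, chosen after its values were seen, read 6.49 and 6.63 with SET8 shRNA, 4.76 and 6.33 with control shRNA in Wnt3a medium, and 4.74 and 4.13 in control medium, where both arrays were at background. It was at least 3.41-fold higher with SET8 shRNA than in control medium. None of the 2 ligands tested had an unadjusted p under 0.05 between the shRNAs in limma, the nearest being PDGFB (0.63, SE 0.38).

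Relatives of the matrix members were less far from 0 between the media. The members had come to attention through this contrast and the relatives had not, so that comparison is a description only. Several of the proteoglycans also had arrays at background, which limits the differences that can be seen. Of 10 other small leucine-rich proteoglycans 8 had lower means in Wnt3a medium, with a median of -0.32, and none was 1.5-fold apart. With SET8 shRNA, against the same control medium arrays, 7 of the 10 had lower means and the median was -0.53. In that contrast 1 of them, PRELP, was at least 1.5-fold apart, 1.75-fold lower by the means. EPYC and KERA are in the same gene cluster as DCN and LUM. EPYC differed by -0.19, with an array of each medium at background. KERA was under the random control on all 6 arrays, so it has no measured difference. The 6 other fibulins had a median of 0.18, with 2 lower, and FBLN1 read 13.04 and 13.43 with SET8 shRNA, 13.13 and 13.05 with control shRNA in Wnt3a medium, and 13.31 and 13.01 in control medium. All 6 other mesenchymal transcription factors had lower means in Wnt3a medium, with a median of -0.16. With SET8 shRNA against control medium arrays, all 6 fibulins had higher means, with a median of 0.24. Of the transcription factors 3 were lower and 3 higher there, with a median of -0.20 and SNAI2 lowest at -1.24. None of these 2 lists was 1.5-fold apart in that contrast. PRRX2, the paralogue of PRRX1, read 8.61 and 8.44 with SET8 shRNA, 8.89 and 8.81 with control shRNA in Wnt3a medium, and 8.95 on both control medium arrays. Between the shRNAs none of the tested genes of these 3 lists had an unadjusted p under 0.05 in limma. The nearest were the proteoglycan PODN (0.39, SE 0.27), the fibulin EFEMP2 (0.45, SE 0.28) and PRRX2 (-0.32, SE 0.22).

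Other non-collagen genes of fibroblasts include several that HEK293 cells expressed brightly. Of 16 measured, 12 had lower means in Wnt3a medium, the median was -0.13 and none was 1.5-fold apart. Vimentin (VIM), the intermediate filament of mesenchymal cells, read 13.79 and 13.89 with SET8 shRNA, 14.19 and 13.64 with control shRNA in Wnt3a medium, and 14.42 and 14.06 in control medium. MMP2, a gelatinase, read 12.71 and 13.16 with SET8 shRNA, 13.05 and 12.78 with control shRNA in Wnt3a medium, and 13.01 and 12.93 in control medium. Those 2 overlapped between the media. Farthest below control medium, with control shRNA, were MFAP4, a microfibril protein (-0.91), and ENG, a TGF-beta co-receptor (-0.68). With SET8 shRNA, against the same control medium arrays, 6 of the 16 had lower means and the median was 0.07. ENG was the only one at least 1.5-fold apart there, 2.61-fold lower by the means. Between the shRNAs ENG read 7.25 and 6.79 with SET8 shRNA against 7.89 and 7.56 with control shRNA (-0.70, SE 0.26, limma adjusted p 0.614), so it did not pass.

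Among 5 fibrillar collagen genes the median difference between the media was -0.09, and COL1A2 and COL3A1 were 1.5-fold apart. COL1A2 read 5.38 and 6.31 with SET8 shRNA, 5.59 and 6.46 with control shRNA in Wnt3a medium, and 7.72 and 7.49 in control medium. COL3A1 read 6.64 and 7.57 with SET8 shRNA, 7.37 and 7.62 with control shRNA in Wnt3a medium, and 8.45 and 8.24 in control medium. The brighter COL1A1 read 12.18 and 11.99 with SET8 shRNA, 12.70 and 12.48 with control shRNA in Wnt3a medium, and 12.35 and 12.27 in control medium. With control shRNA it was thus not lower in Wnt3a medium, while both SET8 shRNA arrays lay below both control medium arrays. Between the shRNAs COL5A1 read 12.86 and 12.95 with SET8 shRNA against 12.44 and 12.11 with control shRNA (0.63, SE 0.26, limma adjusted p 0.680), which did not pass.

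**Figure D3:**
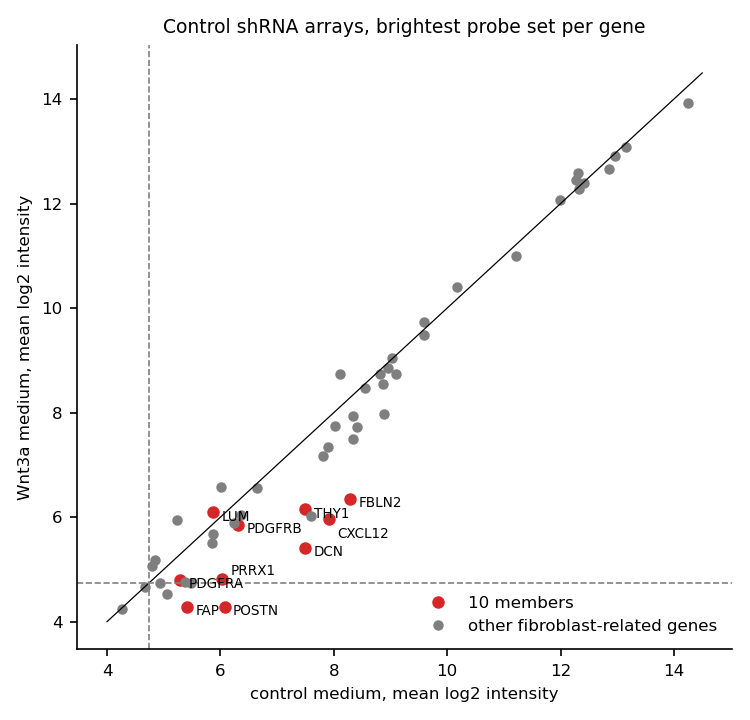
Mean log2 intensity of 2 arrays in Wnt3a medium (vertical axis) and control medium (horizontal axis), control shRNA in both, for the brightest probe set of the 10 members (red) and of the other fibroblast-related genes (grey), with the line of equality and the random control level dashed. Of the members, LUM lies above the line and the other 9 below it.

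**Figure D4:**
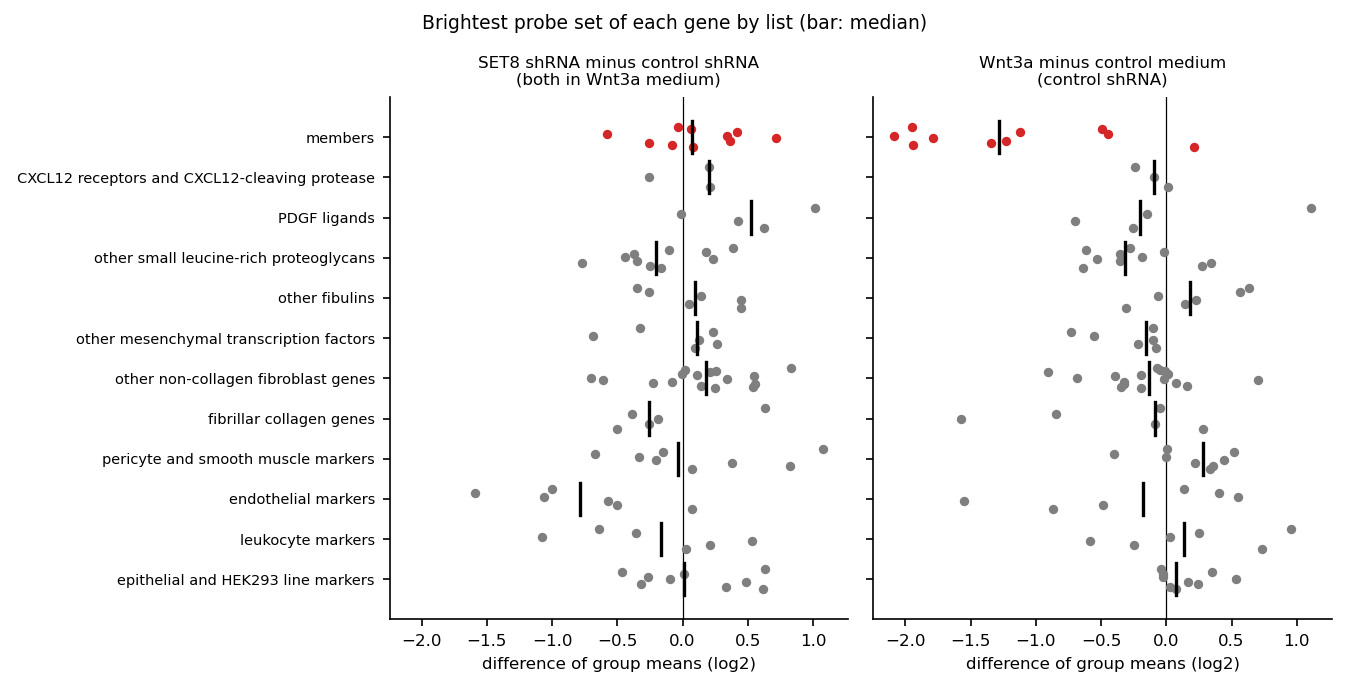
Difference of group means on the log2 scale (horizontal axis) for the brightest probe set of each gene, 1 row per gene list with its median as a bar, SET8 minus control shRNA in Wnt3a medium on the left and Wnt3a minus control medium on the right. Between the media the members have a median of -1.29, and between the shRNAs 0.07.

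By Pearson correlation with CXCL12 NM_199168 over the 6 arrays, the 5 most similar of 11846 tested genes included FLOT1 (0.98), ZNF423 (0.98), AMDHD2 (0.97) and IQGAP3 (0.96), and 38 genes were over 0.9. With 6 arrays in 3 groups this describes a rank only. FLOT1, a membrane scaffold protein, read 13.65 and 13.73 with SET8 shRNA, 13.81 and 13.58 with control shRNA in Wnt3a medium, and 14.21 and 14.01 in control medium, so the shape was alike over a narrower range.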

How the data were processed

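Per the labels, total RNA of HEK293 cells was labelled with Cy3 and hybridised to 1-colour NimbleGen arrays, 6 arrays in 3 groups of 2. The authors deposited 1 intensity per probe set on a linear scale, made with RMA per the submitters' processing notes (its version is not given in the sources used here). A series value table holds the same intensities (largest difference 0). Log2 was taken of the deposited intensities as they stand. Files name positions on hg18. Gene names were updated by Entrez ID through a RefSeq table (38916 probe sets matched).

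Probe sets above their array's median on at least 2 arrays (23808) were fitted in limma 3.58.1 with R 4.3.3, 3 groups, 3 residual and 4.32 prior degrees of freedom, with Benjamini-Hochberg adjustment over all of them. The fit was tested on simulated data. A 2 against 2 exact permutation test cannot go below 0.333, so none is given. The number of arrays limits precision. Settings tried are in the closing section. Every probe set of the 10 genes is given, the brightest first, and from other lists the genes with an unadjusted p under 0.05 or else the smallest. VIM, MMP2, FBLN1, EPYC, KERA, COL1A1, COL1A2, ACKR3, DPP4, PDGFD and PTPRC were added after their values were seen. Members and lists were chosen with earlier results of these data known. Of the 5 genes most like CXCL12, 1 is not reported here. Motifs were searched in RefSeq promoter windows.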

Additional observations from a re-analysis of the deposited data

How the results depend on the processing

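In 17 alternatives, 0 member probe sets were called at a limma adjusted p of 0.05 for SET8 against control shRNA in Wnt3a medium, and 0 between the media. For SET8 shRNA arrays against control medium arrays the count was 0 in the main setting, 2 with only the 4 arrays compared, 1 with the replicate numbers of the SET8 shRNA arrays crossed (chosen after the data were seen), and 0 to 2 when 1 array was left out, being 2 without either Wnt3a medium replicate. With a filter at the 60th percentile and without either control medium replicate no member was tested. With the replicate number as a block the count was 0 in all 3 contrasts. Nothing is read from the counts in the 2 contrasts with control medium. The genes came to attention through the control medium arrays, and the 2 members tested in the main setting passed the filter through those arrays alone. Same-numbered arrays deviated together at 0.75 for the 2 media with control shRNA and at -0.29 between SET8 shRNA and each of them, and the labels do not say what the numbers pair.

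Member probe sets at least 1.5-fold lower in Wnt3a than in control medium numbered 11, 6 with 50 added to the intensities, and 11 to 18 when 1 array was left out, where fewer arrays have to be apart. The count with SET8 shRNA was 15 by the values as read, 13 with 50 added to the intensities, and 15 to 18 without 1 array. Between the shRNAs, leaving out 1 array gave -0.64 to 0.57 for CXCL12, whose sign turned without SET8 shRNA replicate 1 (0.05) or Wnt3a medium replicate 1 (0.57), and -1.11 to 0.95 for FBLN2, which turned without Wnt3a medium replicate 2 (0.95). The cause was not tested. Over all probe sets, calls between the shRNAs numbered 0, but 15 with an intensity trend in the spread, 28 with only the 4 arrays compared, 182 with the crossed numbers, and 0 to 31 without 1 array. Calls for SET8 shRNA arrays against control medium arrays numbered 12, but 0 with no filter, a filter at the random control or the replicate block, 52 at the 60th percentile, 56 with 50 added, 31 with the trend, 2 with a robust spread, 6 with quantile normalisation, 230 with 4 arrays, 792 with the crossed numbers, and 0 to 274 without 1 array. Signals near the random control limit what can be seen of POSTN, FAP, PDGFRA and PRRX1.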

Other observations

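Markers of other cell types that a culture could hold were measured too. Of 8 pericyte and smooth muscle markers 7 had higher means in Wnt3a than in control medium with control shRNA, with a median of 0.28, and none was 1.5-fold apart. Between the shRNAs in Wnt3a medium TAGLN, an actin-binding protein of smooth muscle, read 12.88 and 12.29 with SET8 shRNA against 11.12 and 11.88 with control shRNA (difference 1.08, SE 0.34, limma adjusted p 0.479). ACTA2, smooth muscle actin, went the other way, with 11.09 and 11.07 for SET8 shRNA against 11.57 and 11.93 for control shRNA (-0.67, SE 0.24, limma adjusted p 0.594).

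All 6 endothelial markers were too dim to test. Their median was -0.79 for SET8 against control shRNA in Wnt3a medium, with 5 of 6 lower, and -0.18 for Wnt3a against control medium, with 3 of 6 lower. Among 6 leukocyte markers the medians were -0.17 and 0.14, and the macrophage protein CD68 read 8.65 and 9.07 with SET8 shRNA against 10.08 and 9.79 with control shRNA (-1.07, SE 0.26, limma adjusted p 0.299). Between the media with control shRNA, 4 of the 6 had higher means in Wnt3a medium and 2 had lower means, down to -0.59. Among the higher ones, CD14 differed by 0.73. PTPRC, the pan-leukocyte phosphatase, chosen after its values were seen, differed by 0.96, with 6.03 and 5.95 in Wnt3a medium against 4.92 and 5.15 in control medium. The 9 epithelial and HEK293 line markers had medians of 0.01 and 0.08, all of them tested. NEFL, a neurofilament known from HEK293 cells, read 11.94 and 12.23 with SET8 shRNA against 11.62 and 11.27 with control shRNA (0.64, SE 0.25, limma adjusted p 0.647). None of these genes passed an adjusted p of 0.05 in limma. With SET8 shRNA against control medium arrays all 6 endothelial markers had lower means, with a median of -0.93 and 2 at least 1.5-fold apart. By the brightest probe set the 10 members had a median of -1.05 there, with 4 apart. The medians there were 0.39 for the pericyte and smooth muscle markers, -0.05 for the leukocyte markers and 0.36 for the epithelial and HEK293 line markers.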
